A study of Mus musculus with 10 samples.

Results

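The genes described here encode the subunits of the 5 oxidative phosphorylation complexes in regulatory T cells (Tregs). They were taken by symbol from a table of 27179 genes: the Nduf and Sdh series of complexes I and II, Uqcr genes of complex III, Cox5 to Cox8 genes of complex IV, Atp5 genes of complex V, and the 13 protein genes of the mitochondrial genome. The rule found 97 members, 84 nuclear and 13 mitochondrially encoded. Assigned by symbol alone, the nuclear members fall into 37 of complex I, 4 of complex II, 9 of complex III, 16 of complex IV and 18 of complex V. The members Uqcrh-ps1 and Atp5c1-ps are pseudogenes by their symbols, and Atp5s and Atp5sl carry the names Dmac2l and Dmac2 in the RefSeq table of GRCm38. By their symbols Ndufa4 and Ndufa4l2 are counted with complex I and Atp5s and Atp5sl with complex V, and whether they belong there was not checked. The mitochondrial genome adds 7 members to complex I, 1 to complex III, 3 to complex IV and 2 to complex V.

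Oxidative phosphorylation passes electrons through complexes I to IV, which sit in the inner mitochondrial membrane, and complex V uses the resulting proton gradient to make ATP. Every complex except complex II is built from subunits of both genomes, so nuclear genes and the compact, polycistronic transcripts of mitochondrial DNA have to supply parts of the same machine. Tregs are known for relying on mitochondrial respiration more than conventional effector T cells do.

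The cells were CD4+ TCRb+ YFP+ Tregs of C57BL/6 mice, and 4 groups were sequenced. Maf-KO mice carry a floxed Maf gene (Maffl/fl) that Foxp3Cre-YFP deletes in Foxp3-expressing cells, and WT mice carry Foxp3Cre-YFP alone, so both genotypes have the Cre and the reporter. Maf-KO gut had 2 libraries (replicates 2 and 3), WT gut 2 (replicates 1 and 3), Maf-KO spleen 3 and WT spleen 3, where gut means colon plus small intestine. The series examines what c-Maf, the transcription factor encoded by Maf, does in Tregs. Age, sex and pooling are not in the labels used here, nor is it said that replicates are separate animals, so p-values measure the spread between these samples, which may be technical.

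Maf itself was at 0.609 and 0.239 CPM in Maf-KO gut, against 108 and 109 CPM in WT gut, and at 0.217, 1.1 and 0.195 CPM in Maf-KO spleen, against 30.0, 24.0 and 45.9 CPM in WT spleen. All 5 Maf-KO libraries lay below all 5 WT libraries, as the labels say. CPM is a read count scaled to the library's TMM-normalised total. Totals were 8567035 to 13983965 counts, and a floor of 3 counts equals 0.231 to 0.377 CPM. Foxp3, the defining Treg factor, was at 174 to 211 CPM in Maf-KO gut, 156 to 206 CPM in WT gut, 114 to 123 CPM in Maf-KO spleen and 117 to 134 CPM in WT spleen. Of the 6 Treg markers tested, 3 were called higher in gut in each genotype and 1 lower in gut of WT.

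Several marker lists moved with tissue. Plasma cell markers (4 tested) summed to 1410 to 3750 CPM in Maf-KO gut, 2330 to 6800 CPM in WT gut, 232 to 309 CPM in Maf-KO spleen and 207 to 322 CPM in WT spleen, and 3 were called higher in gut of Maf-KO and 4 in gut of WT. Immediate-early genes summed to 14900 to 19700 CPM in Maf-KO gut, 18400 to 36700 CPM in WT gut, 1650 to 2220 CPM in Maf-KO spleen and 1790 to 3330 CPM in WT spleen, with 9 of 10 called higher in gut in each genotype. B cell markers summed to 48.0 to 73.8 CPM in Maf-KO gut, 55.9 to 62.3 CPM in WT gut, 117 to 345 CPM in Maf-KO spleen and 167 to 243 CPM in WT spleen, with 3 of 5 called lower in gut in each genotype. Gzma, a granzyme, was at 4140 and 4500 CPM in Maf-KO gut, 2610 and 2870 CPM in WT gut and 5.20 to 20.1 CPM in the 6 spleen libraries. Cd8a and Cd8b1, which define CD8 T cells, were at most 22.6 and 48.2 CPM in any library, and Ncr1, which defines NK cells, at most 5.61 CPM. Of the 6 tested markers of CD8 T, NK and innate lymphoid cells, 1 was called higher and 2 lower in gut in each genotype. Pancreatic acinar markers (4 tested) summed to 1.3 and 2.23 CPM in Maf-KO gut, 18.1 and 100 CPM in WT gut, 1.95 to 6.94 CPM in Maf-KO spleen and 1.39 to 1.96 CPM in WT spleen, and 4 were called higher in gut of WT. Macrophage, monocyte and neutrophil markers (7 tested) summed to 75.6 and 232 CPM in Maf-KO gut, 78.2 and 175 CPM in WT gut, 125 to 469 CPM in Maf-KO spleen and 146 to 832 CPM in WT spleen, with 2 called lower in gut in each genotype and 1 higher in gut of Maf-KO. Gut epithelium markers (5 tested) summed to 133 and 137 CPM in Maf-KO gut and 139 and 174 CPM in WT gut. In spleen they summed to 36.2 to 72.6 CPM in Maf-KO and 39.6 to 65.5 CPM in WT. Of them, 1 was called higher in gut of Maf-KO and 2 in gut of WT. Stroma, endothelium and muscle markers (6 tested) summed to 46.6 and 77.4 CPM in Maf-KO gut and 60.3 and 67.6 CPM in WT gut. In spleen they summed to 117 to 179 CPM in Maf-KO and 129 to 195 CPM in WT. Of them, 1 was called higher and 1 lower in gut in each genotype. No listed marker was at 0 in all libraries. The part of these shifts in the tissue results below was not tested.

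Of the 97 members, 89 passed the filter on low counts, 76 nuclear and all 13 mitochondrial. The 8 that did not were Uqcr11, Ndufa4l2, Cox6a2, Cox6b2, Cox7a1, Cox7b2, Cox8b and Cox8c. Most of these are tissue-restricted forms: Cox6a2, Cox7a1 and Cox8b are the heart and muscle isoforms, Cox6b2 and Cox7b2 are known from testis, and Ndufa4l2 is a hypoxia-induced relative of Ndufa4. Their highest count in any library was 19, for Cox7a1, and 16, for Cox6a2. Uqcr11, a small subunit of complex III, and Cox8c had 0 counts in every library, which allows up to 3 counts in each. Cox4i1, the common form of complex IV subunit 4, lies outside the symbol rule and was at 232 and 283 CPM in Maf-KO gut, 266 and 220 CPM in WT gut, 215 to 256 CPM in Maf-KO spleen and 220 to 259 CPM in WT spleen.

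Reading the mitochondrial members requires their nuclear copies. A stretch of mouse chromosome 1 on GRCm38 repeats the mitochondrial genome from the end of COX1 to the first part of ND4, annotated as unprocessed pseudogenes. COX2 (chrM:7013-7696, complex IV) had 681 of 681 compared bases identical to Gm28661 (chr1:24614885-24615565, minus strand), and ND3 (chrM:9459-9806, complex I) had 344 of 345 identical to Gm28438 (chr1:24612775-24613119, minus strand). The stretches are shown because a short read from them matches both places or differs at 1 base. Each is printed 5′ to 3′ along the gene, from GRCm38 with GENCODE transcripts, and a capital marks the single difference, T3C counted from the first base of ND3.
COX2, chrM:7323-7382: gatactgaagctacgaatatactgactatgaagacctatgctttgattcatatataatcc
Gm28661, chr1:24615196-24615255: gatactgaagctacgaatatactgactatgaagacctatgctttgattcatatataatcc
ND3, chrM:9459-9518: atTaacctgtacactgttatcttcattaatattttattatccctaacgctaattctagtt
Gm28438, chr1:24613060-24613119: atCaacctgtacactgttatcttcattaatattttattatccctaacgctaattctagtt
The COX2 stretch differs from its copy at no base.

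The share of each gene's 50-base windows that occur in another transcript followed this map. It was 100% for COX2, 99.9% for COX3, 99.5% for ATP6, 98.8% for ND4L and 98.0% for ND3, then 62.2% for ND4 and 51.1% for COX1. It was 8.19% for ND2 and 7.61% for ND5, and no window of ND1, ND6 or CYTB was shared. For ATP8 the share could not be read: the windows were looked up in annotated transcripts, and between the copies of COX2 and ATP6, where a copy of ATP8 would lie, there is none among those used. How the authors counted reads with several positions is not given in the sources used here.

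Levels per kilobase were lowest for the mitochondrial genes with nearly all windows shared. The median over the 10 libraries was 1730 CPM per kilobase for CYTB (chrM:14145-15288), the only mitochondrial subunit of complex III, 1520 for COX1 (chrM:5328-6872), the catalytic subunit of complex IV, and 1230 for ND1 (chrM:2751-3707), a membrane subunit of complex I. The next mitochondrial genes were ND2 at 378, ND6 at 328, ND5 at 324 and ND4 at 310 CPM per kilobase, all membrane subunits of complex I. The 5 genes with at least 98.0% of windows shared stood far lower: ATP6 at 40.0, COX3 at 38.4, COX2 at 32.5, ND3 at 25.0 and ND4L at 4.32 CPM per kilobase. ATP8 was at 61.2 CPM per kilobase. Among nuclear members the highest were Atp5b, the catalytic beta subunit of the ATP synthase, at 596 CPM per kilobase and Atp5g3, one of the genes for its membrane ring subunit c, at 402. The other genes for subunit c were far lower, with Atp5g1 at 4.6 and Atp5g2 at 0.555 CPM per kilobase, and 38.3% of the windows of Atp5g2 occur elsewhere.

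The clearest pattern was a lower level of mitochondrially encoded members in gut than in spleen Tregs of both genotypes relative to the nuclear members. Counts of the 13 mitochondrial genes divided by counts of the 84 nuclear members do not depend on library scaling. This ratio was 0.611 and 0.566 in Maf-KO gut, 0.613 and 0.688 in WT gut, 0.728, 1.03 and 0.855 in Maf-KO spleen and 0.81, 0.751 and 0.972 in WT spleen. All 4 gut libraries lay below all 6 spleen libraries. The ratio averaged 0.589 ± 0.0318 in Maf-KO gut, against 0.871 ± 0.152 in Maf-KO spleen, and 0.651 ± 0.0535 in WT gut, against 0.844 ± 0.115 in WT spleen (SD, n = 2 in gut and 3 in spleen). With ND1, ND2, ND5, ND6 and CYTB alone, the genes with few shared windows, it was 0.327 and 0.311 in Maf-KO gut, 0.349 and 0.363 in WT gut, 0.446, 0.604 and 0.51 in Maf-KO spleen and 0.52, 0.465 and 0.562 in WT spleen. The gut libraries again lay below every spleen library. The highest ratios, in Maf-KO spleen replicate 2 and WT spleen replicate 3, came with S100a8, a neutrophil marker, at 122 and 321 CPM, against 14.7 to 23.2 CPM in the other 4 spleen libraries and at most 0.828 CPM in gut. Ms4a1, a B cell marker, was also highest in these libraries, at 103 and 70.6 CPM, against 27.6 to 55.6 CPM in the other 4. Lyz2, listed with S100a8, was at 145 and 149 CPM there and 42.7 to 134 CPM in gut. Cd14, also listed with it, was at 2.26 to 8.17 CPM in gut and 0.325 to 3.98 CPM in spleen. Without Maf-KO spleen replicate 2 or WT spleen replicate 3 the mean ratio in gut over that in spleen was 0.744 in Maf-KO and 0.834 in WT, against 0.676 and 0.771 with them. Leaving out the highest spleen ratio raises this value in any case, so it says nothing of neutrophils. In bulk samples fewer cells of a type and less RNA per cell cannot be told apart.

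**Figure D1:**
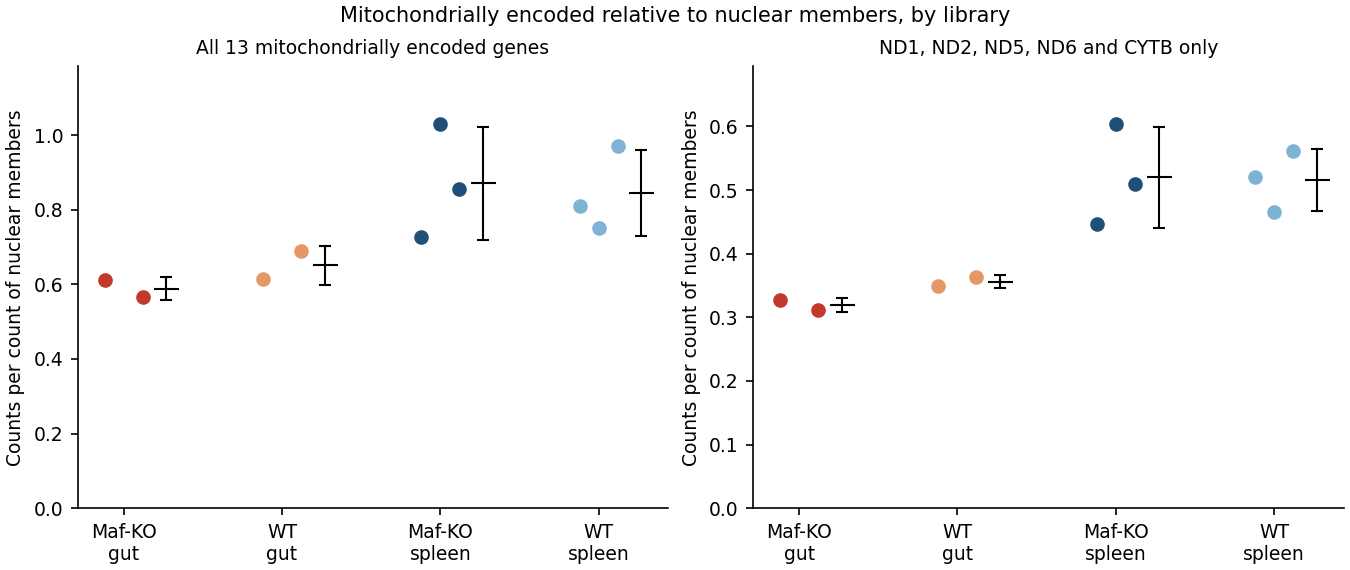
Ratio of mitochondrially encoded to nuclear member counts in each library (points) with the group mean and SD beside them, for all 13 mitochondrial genes (left) and for the 5 with few windows shared with other transcripts (right). In both panels the 4 gut libraries lie below the 6 spleen libraries.

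Gut and spleen libraries that share a title number can be set side by side. The ratio in gut divided by that in spleen was 0.593 and 0.662 in the pairs of Maf-KO replicates 2 and 3 and 0.756 and 0.708 in the pairs of WT replicates 1 and 3. As a share of all counts, mitochondrial members took 0.541% ± 0.00571 in Maf-KO gut, 0.559% ± 0.0157 in WT gut, 0.853% ± 0.144 in Maf-KO spleen and 0.842% ± 0.0529 in WT spleen (SD). Nuclear members took 0.921% ± 0.0595, 0.863% ± 0.0951, 0.979% ± 0.0244 and 1.0% ± 0.0705 of counts in the same groups. Cytosolic ribosomal protein genes took 0.591 and 0.682% of counts in Maf-KO gut and 0.667 and 0.604% in WT gut, against 0.669 to 0.861% in Maf-KO spleen and 0.785 to 0.939% in WT spleen. Their mean was lower in gut, with overlap in Maf-KO, and its part in the mitochondrial result was not tested. All these shares are of unscaled totals, and TMM factors were 0.887 to 0.912 in gut and 1.06 to 1.12 in spleen. On TMM-scaled totals nuclear members averaged 10300 CPM in Maf-KO gut and 9590 in WT gut, against 9170 and 9270 in spleen. Mitochondrial members averaged 6060 and 6210 CPM in gut, against 7990 and 7780 in spleen, in the same order.

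Tested gene by gene with edgeR's quasi-likelihood test over 13214 genes, 8 members were called between gut and spleen in Maf-KO (Benjamini-Hochberg adjusted p under 0.05), 5 higher and 3 lower in gut, where 28.5% of all genes were called, 14.4% higher and 14.1% lower. In WT 5 members were called, 2 higher and 3 lower in gut, where 28.0% of all genes were called, 14.7% higher and 13.3% lower. Both counts are small against these backgrounds. The 3 mitochondrial genes called lower were ND6, ND5 and CYTB in each genotype, which lie next to each other at the end of the mitochondrial coding region.

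ND6 (chrM:13552-14070), a complex I subunit and the only one of the 13 encoded on the opposite strand, was at 107 and 131 CPM in Maf-KO gut, against 160, 193 and 194 CPM in Maf-KO spleen, and at 112 and 123 CPM in WT gut, against 180, 194 and 195 CPM in WT spleen. No gut library reached a spleen library. The log2 fold change of ND6 in gut over spleen was -0.61 ± 0.13 (SE) in Maf-KO (adjusted p = 0.00597) and -0.69 ± 0.13 in WT (adjusted p = 0.00327). A strand setting is not given in the sources used here, so reads of ND6 and of the transcript opposite it cannot be told apart.

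ND5 (chrM:11742-13565), one of the proton-pumping subunits of complex I, was at 445 and 496 CPM in Maf-KO gut, against 550, 704 and 698 CPM in Maf-KO spleen, and at 456 and 443 CPM in WT gut, against 654, 655 and 630 CPM in WT spleen. The groups did not overlap in either genotype. ND5 was lower in gut by a log2 fold change of -0.47 ± 0.13 in Maf-KO (adjusted p = 0.0224) and -0.52 ± 0.13 in WT (adjusted p = 0.0132).

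CYTB, the cytochrome b of complex III, was at 1410 and 1420 CPM in Maf-KO gut, against 1890, 2660 and 2130 CPM in Maf-KO spleen, and at 1530 and 1420 CPM in WT gut, against 2080, 2080 and 2370 CPM in WT spleen. The groups did not overlap, and the spread was widest in Maf-KO spleen. For CYTB the log2 fold change was -0.65 ± 0.15 in Maf-KO (adjusted p = 0.0109) and -0.56 ± 0.15 in WT (adjusted p = 0.0218).

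The other 10 mitochondrial genes were not called, and their values were mostly below 0. In Maf-KO all 13 log2 fold changes of gut over spleen were negative, with a median of -0.43, and for 10 genes the groups did not overlap, where 28.9% of all genes were lower in gut without overlap. In WT 12 of 13 were negative, with a median of -0.30, and 9 did not overlap, where the background was 27.5%. The median over all genes tested was -0.02 in Maf-KO and -0.03 in WT. ND1 was at -0.43 ± 0.16 (adjusted p = 0.0756) in Maf-KO and -0.35 ± 0.16 (adjusted p = 0.134) in WT, and ND2 at -0.39 ± 0.14 (adjusted p = 0.0664) and -0.36 ± 0.14 (adjusted p = 0.0828) in the same order. COX1 stood nearest to 0 in Maf-KO, at -0.17 ± 0.19 (adjusted p = 0.569), and was at -0.06 ± 0.19 (adjusted p = 0.846) in WT. COX1 had 2360 and 2320 CPM in Maf-KO gut, against 2050, 3150 and 2680 CPM in Maf-KO spleen, and 2180 and 2450 CPM in WT gut, against 2090, 2280 and 2880 CPM in WT spleen, so its groups overlapped in both genotypes. ATP8, a small subunit of complex V, was at -0.38 ± 0.21 (adjusted p = 0.216) in Maf-KO and 0.02 ± 0.21 (adjusted p = 0.953) in WT.

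**Figure D2:**
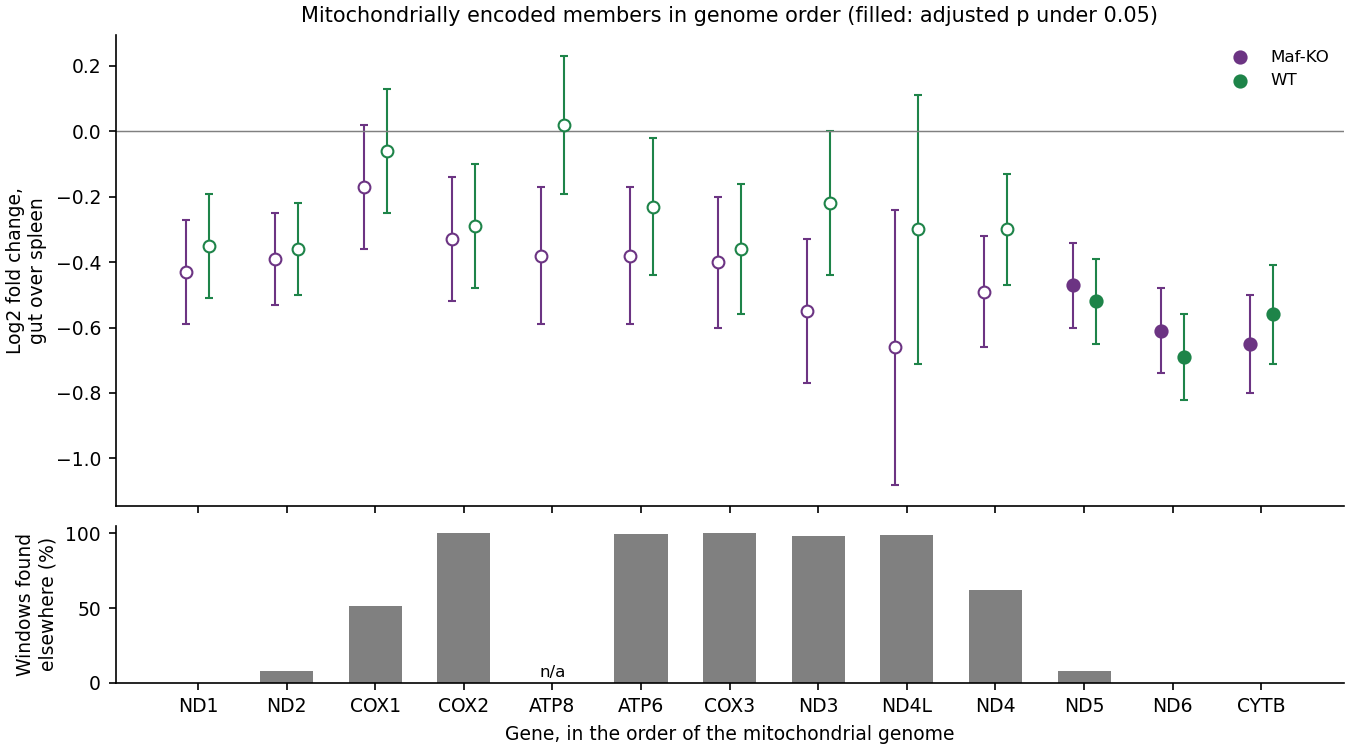
Log2 fold change of gut over spleen (points, with SE bars) for the 13 mitochondrially encoded members in genome order, Maf-KO left of WT, filled where the adjusted p was under 0.05; below, the percentage of each gene's 50-base windows found in another transcript (n/a for ATP8). ND5, ND6 and CYTB are filled in both genotypes, and COX1 lies nearest to 0 in Maf-KO.

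The title numbers were taken to pair gut and spleen libraries (the check and its limits stand with the processing), and a fit with them as a block made more calls. With edgeR and the title number as a fixed block, 23 members were called in Maf-KO and 11 in WT. These included 9 mitochondrial genes lower in gut of Maf-KO and 7 in gut of WT, with ND1, ND2, ND4 and COX3, the third core subunit of complex IV, added in both. In that fit ND1 was at -0.55 (adjusted p = 0.00387) in Maf-KO and -0.37 (adjusted p = 0.0246) in WT, and ND4 at -0.60 (adjusted p = 0.0051) and -0.37 (adjusted p = 0.0442) in the same order. The blocked calls include every member called without the block, 8 of 8 in Maf-KO and 5 of 5 in WT. The background was higher too, at 39.7% of genes called in Maf-KO and 37.2% in WT.

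Some mitochondrial calls were lost without single libraries, and calls over all genes fell with them. Leaving out a gut library left 1 in its group, so effect sizes are given for it here. Without Maf-KO gut replicate 2 or 3, the median over the 13 mitochondrial genes was -0.47 or -0.45 in Maf-KO. Without WT gut replicate 1 or 3 it was -0.43 or -0.22 in WT. Without WT spleen replicate 3, 1 member was called higher and 2 lower in gut of WT, where 24.7% of all genes were called. The median over the 13 genes stayed between -0.55 and -0.34 in Maf-KO and between -0.43 and -0.22 in WT when any 1 library was left out. ND6 was the steadiest, called in all 18 alternatives in WT and in 17 of 18 in Maf-KO.

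Among nuclear members the genes called higher in gut were subunits of complexes III, IV and V. Cox8a (chr19:7215158-7217616), the common form of the smallest complex IV subunit, was at 196 and 216 CPM in Maf-KO gut, against 133, 135 and 134 CPM in Maf-KO spleen, and at 217 and 194 CPM in WT gut, against 149, 141 and 146 CPM in WT spleen. Every gut library exceeded every spleen library. Cox8a rose by 0.62 ± 0.09 on the log2 scale in gut of Maf-KO (1.54-fold, adjusted p = 0.00112) and by 0.50 ± 0.09 in gut of WT (1.42-fold, adjusted p = 0.00354). It stayed called in all 20 alternatives in Maf-KO. In WT it was called in 18 of 20, and lost the call with library totals as the only scaling (0.23, adjusted p = 0.0921) and on the deposited log2 values.

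Uqcrfs1 (chr13:30540312-30545316), the Rieske iron-sulfur protein of complex III, was at 140 and 163 CPM in Maf-KO gut, against 88.8, 101 and 112 CPM in Maf-KO spleen, and at 161 and 132 CPM in WT gut, against 116, 114 and 91.6 CPM in WT spleen. The groups did not overlap. Uqcrfs1 rose by 0.59 ± 0.15 on the log2 scale in gut of Maf-KO (adjusted p = 0.0142) and by 0.45 ± 0.15 in gut of WT (adjusted p = 0.0449). The WT call was at the edge of the threshold and was lost in 10 of 20 alternatives, 7 of which left out a library, whereas the Maf-KO call was lost in 3 of 20.

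Atp5d, Cox5a and Cox5b were called in Maf-KO and missed the threshold in WT. Atp5d (chr10:80138698-80145828), the delta subunit in the central stalk of the ATP synthase, was at 122 and 138 CPM in Maf-KO gut, against 87.9, 85.7 and 95.7 CPM in Maf-KO spleen, and at 113 and 96.4 CPM in WT gut, against 87.4, 101 and 79.0 CPM in WT spleen. The Maf-KO groups were apart and the WT groups overlapped. Atp5d rose by 0.54 ± 0.13 on the log2 scale in gut of Maf-KO (adjusted p = 0.0106), and was at 0.23 ± 0.13 in WT (adjusted p = 0.213). With the title number as a block it was also called in WT (0.33, adjusted p = 0.0233).

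Cox5a (chr9:57517328-57532427), a nuclear subunit on the matrix side of complex IV, was at 164 and 185 CPM in Maf-KO gut, against 120, 142 and 130 CPM in Maf-KO spleen, and at 143 and 137 CPM in WT gut, against 134, 142 and 131 CPM in WT spleen. Only the Maf-KO groups were apart. Cox5a rose by 0.42 ± 0.11 on the log2 scale in gut of Maf-KO (adjusted p = 0.0157), and was at 0.05 ± 0.11 in WT (adjusted p = 0.783). Cox5b (chr1:36691487-36693388), a zinc-binding subunit of complex IV, was at 51.1 and 54.7 CPM in Maf-KO gut, against 38.8, 34.5 and 38.7 CPM in Maf-KO spleen, and at 49.6 and 44.7 CPM in WT gut, against 43.8, 43.1 and 34.2 CPM in WT spleen. Its groups did not overlap in either genotype. Cox5b rose by 0.50 ± 0.14 on the log2 scale in gut of Maf-KO (adjusted p = 0.0209), and was at 0.22 ± 0.14 in WT (adjusted p = 0.263). Windows shared with other transcripts made up 9.11% of Cox5a and 11.9% of Cox5b.

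A call in one genotype and not in the other is not a difference between them, and the test of that difference called 0 of 89 members. The interaction of genotype and tissue was 0.37 ± 0.15 on the log2 scale for Cox5a (unadjusted p = 0.0351, adjusted p = 1.0), 0.31 ± 0.18 for Atp5d (adjusted p = 1.0) and 0.28 ± 0.20 for Cox5b (adjusted p = 1.0) in edgeR's test. Cox5a was the 1 member with an unadjusted p under 0.05, and DESeq2 and limma-voom also called 0 members. Of all genes 0.0% were called by edgeR and 0.0606% by DESeq2.

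**Figure D3:**
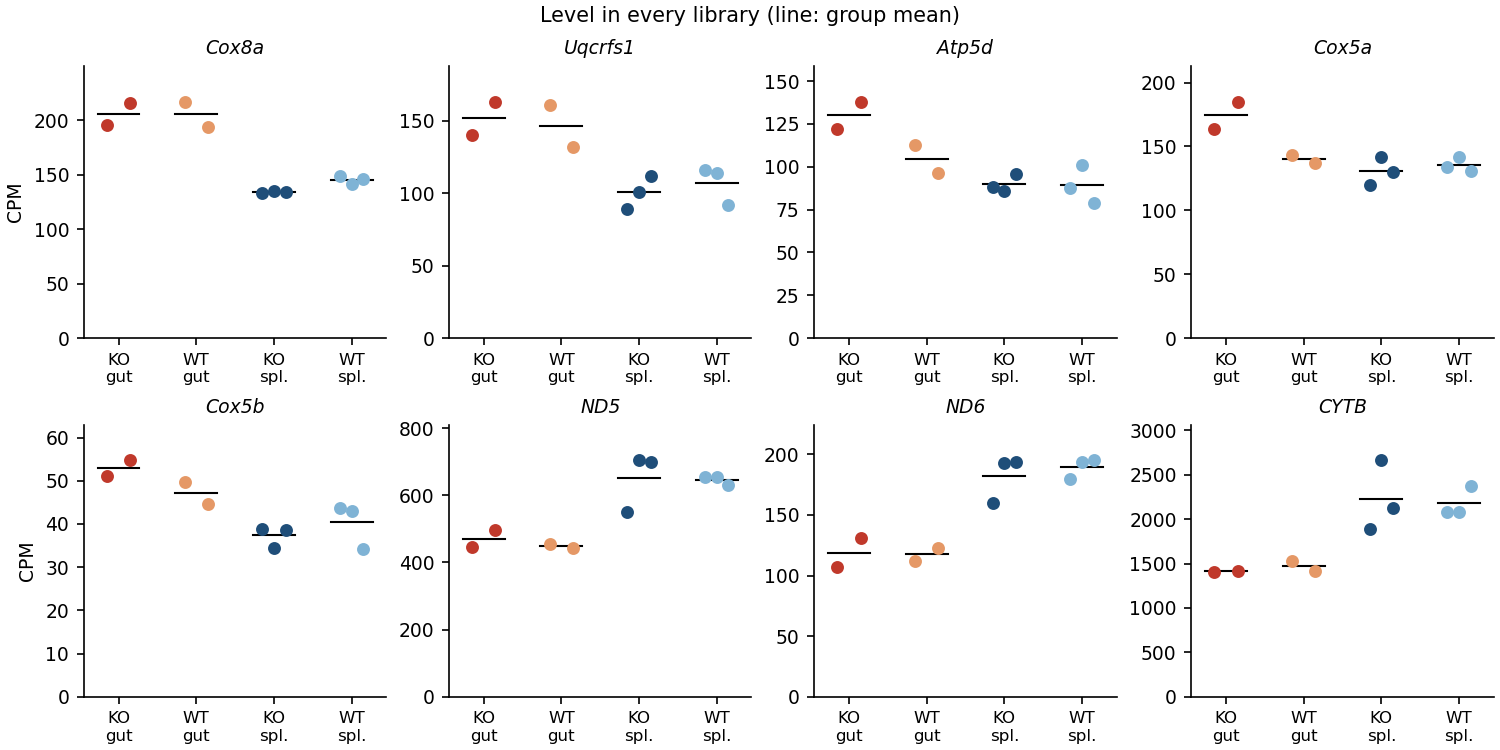
CPM of the 8 members called between gut and spleen, in every library (points) with group means (lines), in the order Maf-KO gut, WT gut, Maf-KO spleen and WT spleen. Cox8a and Uqcrfs1 are higher and ND5, ND6 and CYTB lower in all gut libraries than in all spleen libraries.

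By complex as assigned from the symbols, nuclear members of complex IV stood highest in gut. Their median log2 fold change of gut over spleen was 0.33 in Maf-KO, with 9 of 10 positive and 3 called, and 0.16 in WT, with 9 of 10 positive and 1 called. The exception in both was Cox7a2l, known from supercomplex assembly, at -0.20 ± 0.15 (adjusted p = 0.362) in Maf-KO and -0.25 ± 0.15 (adjusted p = 0.254) in WT. Cox4i1, which lies outside the rule and these medians, was at 0.13 (adjusted p = 0.521) in Maf-KO and 0.00 (adjusted p = 0.993) in WT. Cox7c, a small subunit with 22.1% of windows found elsewhere, had a large but noisy value, 0.56 ± 0.22 (adjusted p = 0.0838) in Maf-KO and 0.57 ± 0.22 (adjusted p = 0.0769) in WT. Complex III nuclear members had medians of 0.22 in Maf-KO and 0.11 in WT, with 7 of 8 positive in each. Complex V had 0.14 and -0.04, complex I 0.07 and 0.01, and complex II -0.03 and 0.00, in the same order of Maf-KO and WT. Without the block no nuclear member of complexes I and II was called in either genotype. With it, Ndufa10, an accessory subunit of complex I, was called higher in gut of both (0.32, adjusted p = 0.0229 in Maf-KO and 0.28, adjusted p = 0.0442 in WT), Ndufv1 (0.32, adjusted p = 0.0297) and Ndufv3 (0.30, adjusted p = 0.0378) in Maf-KO, and Cox7a2l lower in Maf-KO (-0.34, adjusted p = 0.0374).

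Other well known subunits were not called without the block. In complex IV, Cox7b was at 0.36 ± 0.13 (adjusted p = 0.0646) and Cox6c at 0.31 ± 0.12 (adjusted p = 0.0788) in Maf-KO, both structural subunits whose Maf-KO groups did not overlap. In WT these were at 0.17 and 0.20 with overlapping groups. Atp5b was at 1340 and 1370 CPM in Maf-KO gut, against 1080, 1120 and 1070 CPM in Maf-KO spleen, and at 1260 and 1160 CPM in WT gut, against 1060, 1200 and 981 CPM in WT spleen. Its Maf-KO groups were apart and its WT groups overlapped, with 0.32 ± 0.12 (adjusted p = 0.0665) in Maf-KO and 0.17 ± 0.12 (adjusted p = 0.313) in WT. Atp5a1, the alpha subunit that alternates with the beta subunit in the catalytic head, was at 0.14 in Maf-KO and -0.06 in WT, and Atp5c1, the rotating gamma subunit, at 0.15 and 0.02. In complex I, Ndufv1, which binds NADH, was at 0.33 ± 0.13 (adjusted p = 0.0808) in Maf-KO and 0.09 ± 0.13 (adjusted p = 0.633) in WT, while the iron-sulfur subunit Ndufs1 was at -0.06 and -0.16. In complex III the core protein Uqcrc2 was at 0.23 in Maf-KO and 0.05 in WT.

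Over all 76 nuclear members the median was 0.13 in Maf-KO, with 58 positive, and 0.04 in WT, with 45 positive. In WT the sign hung on single libraries. Without WT gut replicate 1 the median was -0.13, with 21 of 78 positive and all genes at -0.05, without WT gut replicate 3 it was 0.15, with 60 of 78 positive, and without WT spleen replicate 3 it was -0.01. In Maf-KO it was 0.22 without Maf-KO gut replicate 2, 0.06 without replicate 3 and 0.11 to 0.16 without any other library. In Maf-KO 31 of 76 were higher in gut with no overlap, where 27.5% of all genes were, and 1 was lower, where 28.9% were. In WT 6 of 76 were higher and 6 lower with no overlap, where 25.9% and 27.5% of all genes were. The signs depend on the scaling, because TMM factors were 0.887 to 1.12 and lower in gut. With library totals alone the median of all genes moved to -0.28 in Maf-KO and -0.30 in WT, and the nuclear members' to -0.12 and -0.23. Calls were then 1 higher and 17 lower in gut of Maf-KO and 0 higher and 21 lower in gut of WT. Of all genes, 37.4% were called in Maf-KO and 39.9% in WT with this scaling. Relative to the median of all genes the nuclear members were 0.15 higher in Maf-KO and 0.07 higher in WT under both scalings. Nuclear complex IV was 0.35 higher in Maf-KO under both and 0.19 to 0.20 higher in WT. Mitochondrial members stood at -0.41 and -0.27 under both. These distances could hardly change, since a scaling shifts all genes of a comparison by nearly the same amount. Of the 4 complex II genes, Sdha, the flavoprotein that also serves the citric acid cycle, was at -0.03 in Maf-KO and -0.01 in WT, and Sdhb, its iron-sulfur partner, at 0.25 and 0.01. Sdhc and Sdhd, the membrane anchors, were at -0.12 and -0.04 in Maf-KO and -0.14 and 0.24 in WT.

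**Figure D4:**
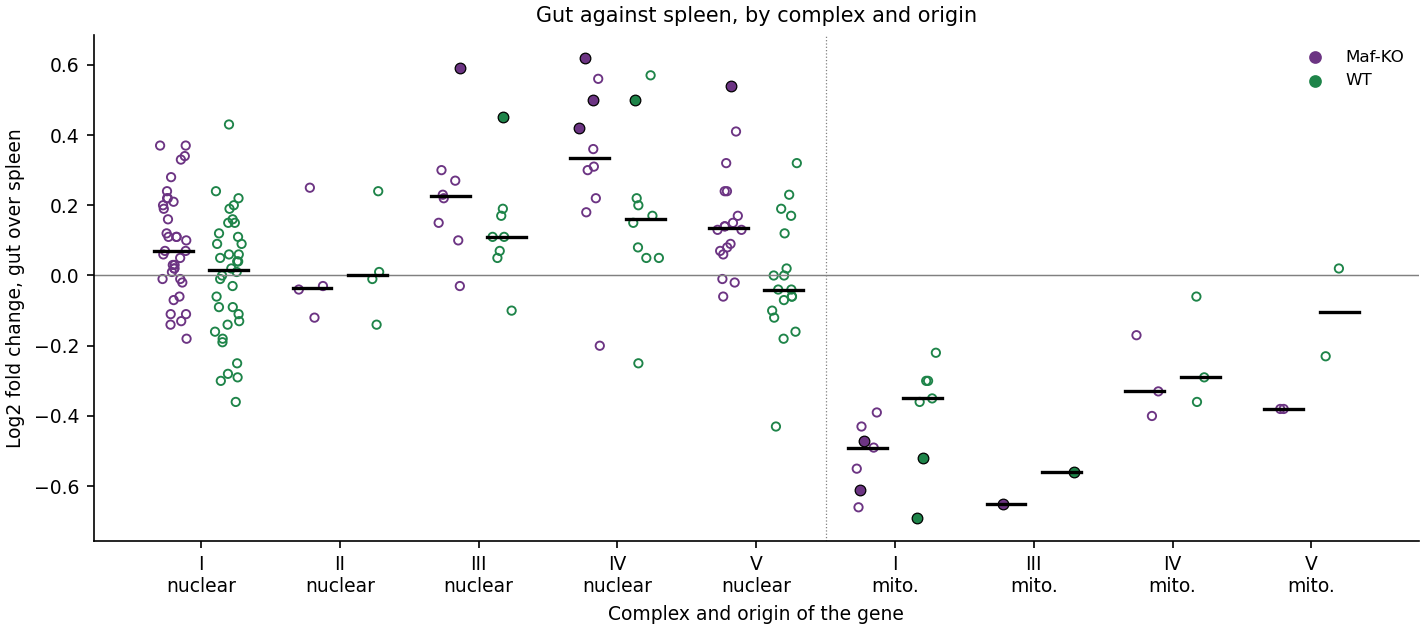
Log2 fold change of gut over spleen for each tested member by complex and origin, Maf-KO left of WT (filled: adjusted p under 0.05; black bars: medians). Nuclear complex IV has the highest nuclear medians, 0.33 and 0.16, and all mitochondrial groups have medians below 0.

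The comparison the study was built on, Maf-KO against WT, called no member. In gut 0 of 89 were called by edgeR, DESeq2 and limma-voom, which called 0.151%, 0.848% and 0.25% of all genes. In spleen 0 of 89 were called by each of these, where 0.0151% of all genes were called by edgeR. In edgeR's test 2 members had an unadjusted p under 0.05 in gut and 1 in spleen. The 2 in gut were Cox5a, at 0.32 ± 0.12 on the log2 scale (unadjusted p = 0.0232, adjusted p = 0.53), and Atp5d, at 0.32 ± 0.14 (unadjusted p = 0.046, adjusted p = 0.605). The 1 in spleen was Cox7c, at -0.44 ± 0.20 (unadjusted p = 0.0497, adjusted p = 0.999).

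Cox7c had 11.6 and 13.3 CPM in Maf-KO gut, against 19.0 and 15.1 CPM in WT gut, and 8.02, 9.25 and 8.09 CPM in Maf-KO spleen, against 14.3, 10.3 and 9.87 CPM in WT spleen. Its Maf-KO values were below all WT values in both tissues. In spleen it was 1 of 7 members lower in Maf-KO without overlap, where 3.9% of all genes were, and 0 members were higher without overlap, where 3.6% were. In gut 17 members were higher and 9 lower without overlap, where 17.4% and 18.8% of all genes were. The difference of Cox7c in gut was -0.45 ± 0.24 (adjusted p = 0.672). Uqcrc1, a core protein of complex III, had 357 and 385 CPM in Maf-KO gut, against 267 and 316 CPM in WT gut, a difference of 0.35 ± 0.16 (adjusted p = 0.632), and in spleen it was at 0.15 ± 0.13 (adjusted p = 0.999) with overlapping groups. Other members with the lowest unadjusted p for their direction were Atp5s in gut, at -0.51 ± 0.35 (adjusted p = 0.771), and Ndufc2, at 0.15 ± 0.13, and Ndufb3, at -0.22 ± 0.11, in spleen (adjusted p = 0.999 each). Atp5b, the nuclear member with the highest level per kilobase, was at 0.16 ± 0.13 in gut (adjusted p = 0.799) and 0.02 ± 0.10 in spleen (adjusted p = 0.999).

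The intervals give the differences compatible with these libraries for each gene alone. A call asks for more, since it is adjusted over 13214 genes. In gut the 95% interval of Maf-KO over WT lay within 1.5-fold in either direction for 60 of 76 nuclear and 7 of 13 mitochondrial members, and within 2-fold for 72 and 12. The exceptions at 2-fold were Atp5s, Uqcrh-ps1, Atp5g2, Atp5l and ND4L, none of which passed 133 counts in any library. In spleen it lay within 1.5-fold for 68 and 10 members and within 2-fold for 74 and 13. The catalytic and core subunits Ndufv1, Ndufs1 and Ndufs8 of complex I were at 0.18, 0.00 and 0.04 in gut and -0.06, -0.11 and -0.02 in spleen. Sdha was at 0.04 in gut and 0.06 in spleen. COX1 was at 0.02 ± 0.21 in gut and 0.12 ± 0.17 in spleen.

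Small shifts shared by many members were seen, and they moved with single libraries. In gut 54 of 76 nuclear members were positive, with a median of 0.05, and 10 of 13 mitochondrial ones negative, with a median of -0.09. Without WT gut replicate 1 the nuclear median was 0.20, with 73 of 78 positive, and without WT gut replicate 3 it was -0.06, with 31 of 78 positive. Without Maf-KO gut replicate 2 it was 0.14 and without replicate 3 it was 0.00. In spleen 15 of 76 nuclear members were positive, with a median of -0.05, against -0.01 over all genes, and mitochondrial members had a median of 0.00. Without WT spleen replicate 2 the nuclear median was -0.02, with 32 of 76 positive, and without WT spleen replicate 3 it was -0.11, with 8 of 76 positive. Without Maf-KO spleen replicate 1 the mitochondrial median was 0.12, and without replicate 2 it was -0.11. Maf-KO spleen replicate 1 had the lowest mitochondrial to nuclear ratio of the spleen libraries and replicate 2 the highest.

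**Figure D5:**
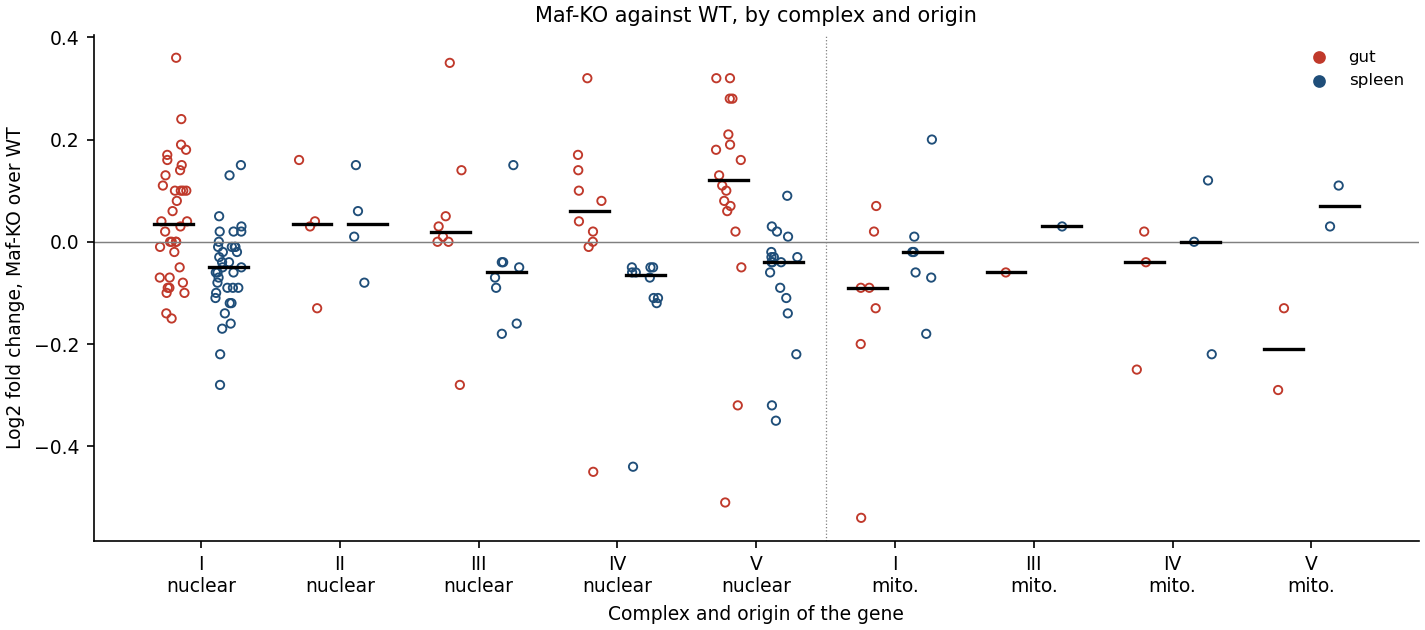
Log2 fold change of Maf-KO over WT for each tested member by complex and origin, gut left of spleen (black bars: medians). No point is filled, since no member passed an adjusted p of 0.05, and the nuclear medians lie between -0.07 and 0.12.

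Genes that serve the respiratory chain without being subunits were compared between the tissues as lists. The list for mitochondrial transcription and mRNA handling also holds genes of mitochondrial DNA replication. Of its 24 tested genes, 11 fell and 2 rose in gut of Maf-KO, and 7 fell and 1 rose in gut of WT. Of all genes, 14.1% fell in Maf-KO and 13.3% in WT. The median of the list was -0.48 in Maf-KO and -0.32 in WT. Polrmt, the mitochondrial RNA polymerase, fell by 0.71 on the log2 scale in Maf-KO (adjusted p = 0.00296) and by 0.68 in WT (adjusted p = 0.00398). Tefm, its elongation factor, fell by 1.56 (adjusted p = 0.00112) in Maf-KO and by 0.75 (adjusted p = 0.035) in WT. Twnk, the mitochondrial DNA helicase, fell by 0.77 (adjusted p = 0.0142) in Maf-KO and by 0.80 (adjusted p = 0.0118) in WT. Lrpprc, which stabilises mitochondrial mRNAs, fell by 0.40 (adjusted p = 0.0253) in Maf-KO and by 0.65 (adjusted p = 0.00259) in WT. Tfam, which packages mitochondrial DNA and starts its transcription, fell by 0.49 (adjusted p = 0.00473) in Maf-KO and was at -0.26 (adjusted p = 0.0785) in WT. Polg2, the accessory subunit of the mitochondrial DNA polymerase, went the other way, with 2.04 (adjusted p = 7.32e-05) in Maf-KO and 2.11 (adjusted p = 4.95e-05) in WT.

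Of 77 mitochondrial ribosomal protein genes, 10 fell and 4 rose in gut of Maf-KO, and 13 fell and 2 rose in gut of WT, with medians of -0.15 and -0.22. Of all genes 14.1% fell and 14.4% rose in Maf-KO and 13.3% fell and 14.7% rose in WT, so the falls were near the background and the rises below it. Mrpl44 had the lowest value in each, -1.09 in Maf-KO and -0.97 in WT. Of 44 assembly factors 8 fell and 2 rose in Maf-KO and 4 fell and 1 rose in WT, falls on either side of the same background and rises below it. Uqcc3, needed for complex III assembly, fell by 0.70 in Maf-KO and by 0.84 in WT, and Cox17, the copper chaperone of complex IV, rose by 0.45 in Maf-KO and by 0.53 in WT. Of 26 genes of the citric acid cycle and the electron carriers, 1 fell and 3 rose in Maf-KO and 1 fell and 1 rose in WT, below the same background, and Idh3b, a subunit of isocitrate dehydrogenase, rose in both (0.54 and 0.45). These lists had 0 genes called between Maf-KO and WT in gut or in spleen by edgeR's test.

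Of 11 regulators of respiratory chain genes, 1 rose and 3 fell in gut in each genotype, where 14.4% of all genes rose and 14.1% fell in Maf-KO and 14.7% rose and 13.3% fell in WT. With 11 genes these counts say nothing of the list as a whole. Gabpb1, a subunit of GABP (an ETS factor of respiratory promoters), rose by 1.17 on the log2 scale in gut of Maf-KO (adjusted p = 0.000186) and by 1.03 in gut of WT (adjusted p = 0.000392). Its paralogue Gabpb2 fell by 0.53 (adjusted p = 0.0256) in Maf-KO and by 0.86 (adjusted p = 0.00266) in WT, while Gabpa, the DNA-binding subunit, was at -0.11 and -0.02. The coactivator Pprc1 fell by 1.10 in Maf-KO and by 1.23 in WT, and Nrf1, the best known activator of these promoters, was at -0.30 (adjusted p = 0.0597) and -0.03 (adjusted p = 0.848).

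RefSeq promoters of GRCm38.p6, 250 bases before to 50 after the start, were at hand for 69 of the 84 nuclear members and were searched on both strands. The motif of NRF1 (GCGCA, any 1 base, then GCGC) occurred in 16 of 69, or 23.2%, against 10.7% of the promoters of all genes tested, and the motif of YY1 (AAGATGGCG) in 7, or 10.1%, against 3.32%. The motif of GABP (CCGGAAG) occurred in 15, or 21.7%, against 19.0%. Of all 27025 promoters, 4.78%, 1.49% and 9.12% hold the motifs of NRF1, YY1 and GABP. By complex at least 1 motif was found in 15 of 32 members of complex I, 3 of 3 of complex II, 3 of 5 of complex III, 3 of 13 of complex IV and 9 of 16 of complex V. At least 1 occurred in 29.8% of the promoters of genes tested and 14.0% of all promoters, and groups of 3 and 5 are too small to read. Of the 5 nuclear members called between tissues, Cox8a holds 2 GABP matches and the promoters of Uqcrfs1, Atp5d, Cox5a and Cox5b hold none of the 3 motifs. The promoter of Cox8a is shown because it belongs to the member called higher in gut in both genotypes under the most alternatives. Capitals mark the GABP matches, both on the opposite strand, and a match is a description of letters only.
Cox8a promoter, chr19:7217567-7217866, minus strand: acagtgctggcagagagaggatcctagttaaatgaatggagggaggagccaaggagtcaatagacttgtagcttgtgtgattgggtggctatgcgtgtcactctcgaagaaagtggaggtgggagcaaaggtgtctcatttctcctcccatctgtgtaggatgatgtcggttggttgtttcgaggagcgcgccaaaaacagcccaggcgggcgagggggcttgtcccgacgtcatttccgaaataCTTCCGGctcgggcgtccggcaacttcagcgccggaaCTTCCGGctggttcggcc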

How the data were processed

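RNA of sorted Tregs was extracted with an RNeasy Plus Mini kit and converted to sequencing libraries (TruSeq RNA), per the labels' protocols. The authors deposited 1 table of raw read counts per gene for all 10 libraries and, per library, log2 FPKM values for 12252 genes, which hold 74 members and no mitochondrial one. Subread, featureCounts, limma and the builds GRCm38 and mm10 are named in the submitters' processing notes; the sources used here state no versions, strand setting or rule for reads with several positions. Totals were 8567035 to 13983965 counts; 852 rows without a symbol hold 0.173 to 0.203% of them and stayed in the totals. Floors cover counting error only.

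Counts were fitted with edgeR 4.0.16 (R 4.3.3): filterByExpr (minimum count 10, total 15), TMM, 1 coefficient per group over all 10 libraries without a block, quasi-likelihood F tests, two-sided, Benjamini-Hochberg adjustment over 13214 genes, called under 0.05. SE is the log2 fold change divided by the root of F, and 95% intervals use 9.97 degrees of freedom. Alternatives were DESeq2 1.42.0, limma 3.58.1 (voom, and trend on the log2 FPKM values), other scalings and filters, leaving out libraries, and blocks. The fit was tested on simulated data. Same-numbered titles link 4 gut and spleen pairs, whose deviations from group means correlate at 0.41, 0.406, 0.361 and 0.296. Libraries of different groups without a shared number reached 0.275 (Maf-KO spleen replicate 2 with WT spleen replicate 3). The 2 gut libraries of a genotype mirror each other (-1), so the 4 values are not independent. The numbers were taken to pair the libraries, though no label says so. Replicates differed by more than sampling noise (chi-square 13.9 to 32.6 per degree of freedom).

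The members and lists were chosen with earlier results of these data known. Named genes are all mitochondrial members, up to 6 called members per direction and comparison or else the 2 with the lowest unadjusted p, and a fixed set of best known subunits. Ndufa10, Ndufv3, Foxp3, Gzma, Cd8a, Cd8b1, Ncr1, S100a8, Ms4a1, Lyz2, Cd14 and the genes named from the pathway lists were chosen after their values were seen.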

Additional observations from a re-analysis of the deposited data

How the results depend on the processing

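For gut against spleen, the count of members called was 5 in WT and 8 in Maf-KO. With library totals as the only scaling it was 21 in WT and 18 in Maf-KO, mostly lower in gut, where 39.9% and 37.4% of all genes were called. Limma-trend on the deposited log2 FPKM values gave 12 in WT, 0 of them higher in gut, and 7 in Maf-KO, 1 of them higher. There 39.7% of all genes were called in WT and 36.9% in Maf-KO. DESeq2 gave 13 in Maf-KO, where 30.4% of all genes were called. Testing without the mitochondrially encoded genes left 2 in WT and 5 in Maf-KO, since 3 of the calls in each are those genes. With the title number as a fixed block the counts were 11 in WT and 23 in Maf-KO, where 37.2% and 39.7% of all genes were called. As a random effect in limma-voom they were 13 and 26, where 41.6% and 43.7% were called. Leaving out 1 spleen library gave 3 to 6 in WT, where 22.4 to 27.3% of all genes were called. In Maf-KO it gave 6 to 10, where 21.9 to 27.8% were called. The cause of these shifts was otherwise not tested. The counts of both genotype comparisons and of the interaction were 0 under every alternative run, including the title number as a random effect. With the title number as a fixed block only gut against spleen was tested.

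The mitochondrial share of counts was 0.606% in Maf-KO gut, 0.621% in WT gut and 0.778% in WT spleen on TMM-scaled totals, and without 1 library it was 0.537 to 0.545% in Maf-KO gut, 0.548 to 0.57% in WT gut, 0.783 to 0.927% in Maf-KO spleen and 0.814 to 0.867% in WT spleen. The mean ratio of mitochondrial to nuclear counts in gut over spleen, 0.676 in Maf-KO and 0.771 in WT, was 0.614 and 0.69 with the 5 genes of few shared windows, and 0.624 to 0.744 and 0.726 to 0.834 without 1 library, 2 checks chosen after seeing the data. Of 4142 single-gene values recomputed, 40 lost and 74 gained a call, and 0 called values changed sign. With 2 gut libraries per genotype and adjustment over 13214 genes, differences of 1.5-fold and above could also go uncalled for many members.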
